A study of Mus musculus with 33 samples.

Results

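Germ-free (GF) mice and mice with an antibiotic-depleted microbiome (Abx) both lack a normal gut flora, and the comparison here asks whether their nucleus accumbens responded differently to repeated morphine. The response of a gene is its log2 fold change of morphine over saline, and the quantity tested is the GF response minus the Abx response, called the difference throughout. A positive difference means that the gene went further up, or less far down, with morphine in GF mice. The 4 groups hold 22 of the 33 libraries of the series: 5 GF morphine, 6 GF saline, 5 Abx morphine and 6 Abx saline libraries of bulk RNA from this ventral striatal region, each taken as 1 mouse. The other 11 libraries are from mice with a normal microbiome that drank water, and are used only for values set beside the difference.

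All mice were C57BL/6J. GF mice were bred at the institution, lived in flexible vinyl isolators, were matched in age to the conventional mice and had sterilised food and water. Abx mice were bought from a commercial supplier at 7 to 9 weeks of age, and per the labels they were animals of an earlier publication. Their drinking water held vancomycin and bacitracin at 0.5 mg/mL each, neomycin at 2 mg/mL and the antifungal pimaricin at 1.2 µg/mL, beginning 2 weeks ahead of the procedures and lasting throughout. Drinks were allotted to cages, and the labels do not say which mice shared one. Morphine groups were injected with 20 mg/kg per day over 7 days and saline groups with saline. GF and Abx mice thus differ in breeding site and in lifelong against adult loss of microbes, as well as in antibiotic exposure, and these cannot be told apart. Nothing in the labels gives a sequencing date or batch, and p-values measure only the spread between these samples, which may be partly technical.

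The nucleus accumbens receives dopamine input from the midbrain and is a main site of opioid reward. Its principal cells are GABA-releasing medium spiny neurons that carry dopamine and opioid receptors, and morphine acts there and on the inputs through the mu opioid receptor. Morphine also activates the hypothalamic-pituitary-adrenal axis, whose glucocorticoid hormones act on brain cells through a nuclear receptor, and the gut flora is known to affect the maturity of microglia, the resident immune cells of the brain.

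Libraries held 5.86 to 7.30 M reads counted to genes in GF morphine, 4.87 to 15.3 M in GF saline, 11.1 to 13.7 M in Abx morphine and 9.36 to 12 M in Abx saline mice, so depth differed between GF and Abx mice. Markers of medium spiny neurons were abundant everywhere: Penk, which codes for the opioid peptide precursor proenkephalin, averaged 1346 ± 180.1 CPM (read counts scaled to library depth) in GF morphine, 1232 ± 305 in GF saline, 1199.6 ± 103 in Abx morphine and 1213 ± 299 in Abx saline libraries (SD, n = 5, 6, 5 and 6). Some libraries stood apart. GF saline replicate 1 was the deepest, and on the first principal component (31.9% of the variance) it lay at -15.7, among the Abx libraries (-31.1 to -9.64) and away from the other GF libraries (8.85 to 32.0). GF saline replicate 5 was the shallowest. Of the 22 libraries it also had the lowest mean log2(CPM + 1) of 20 medium spiny neuron genes (6.66) and the highest of 20 myelin genes (7.41). GF morphine replicate 5 had the highest share of reads in the tally entries that name no gene, 35.4%, and lay at 31.1 on the third component, where the other 21 libraries lay between -16.2 and 18. Abx saline replicate 5 stood apart from the other Abx saline libraries in the level of activity-induced genes (5.95, the others 5.04 to 5.24). It did so too for medium spiny neuron genes (7.01, the others 7.69 to 8.00), and no list median leaves it out. Values without the 3 GF libraries, or a range, are given beside several of the gene lists they moved. A range of list medians, where printed, covers the 22-library fit, other scalings, GC and length offsets, neighbouring-tissue covariates, all 33 libraries, DESeq2 and the fits without each of these 3 GF libraries.

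Of 14326 genes tested, 43 (0.3%) had a difference past the adjusted threshold of 0.05 in edgeR's quasi-likelihood test. The difference was positive for 22 (0.154%) and negative for 21 (0.147%), with a median size of 0.69 on the log2 scale, and 11 of the 43 exceeded a log2 difference of 1. The median difference over all genes was -0.01, and 2150 genes (15%) had an unadjusted p under 0.05. Within Abx mice alone, morphine against saline called 264 genes (1.84%), 123 higher (0.859%) and 141 lower (0.984%). Within GF mice it called 0 of 14326 (0%; smallest adjusted p = 0.326), with 701 (4.89%) at an unadjusted p under 0.05, 1 by DESeq2 and 0 by limma voom. The median standard error of a response was 0.12 in GF and 0.11 in Abx mice. Both come from 1 fit that shares each gene's variance over the 4 groups, so they do not measure the spread within GF mice alone. Correlations of log2 CPM between libraries of a group were 0.969 to 0.987 in GF morphine and 0.959 to 0.986 in GF saline mice. In Abx mice they were 0.987 to 0.993 for morphine and 0.974 to 0.992 for saline. Differences and responses are given ± 1 standard error, and mean levels ± SD (n = 5 morphine, 6 saline libraries). A count of 0 does not show that no gene responded in GF mice.

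**Figure D1:**
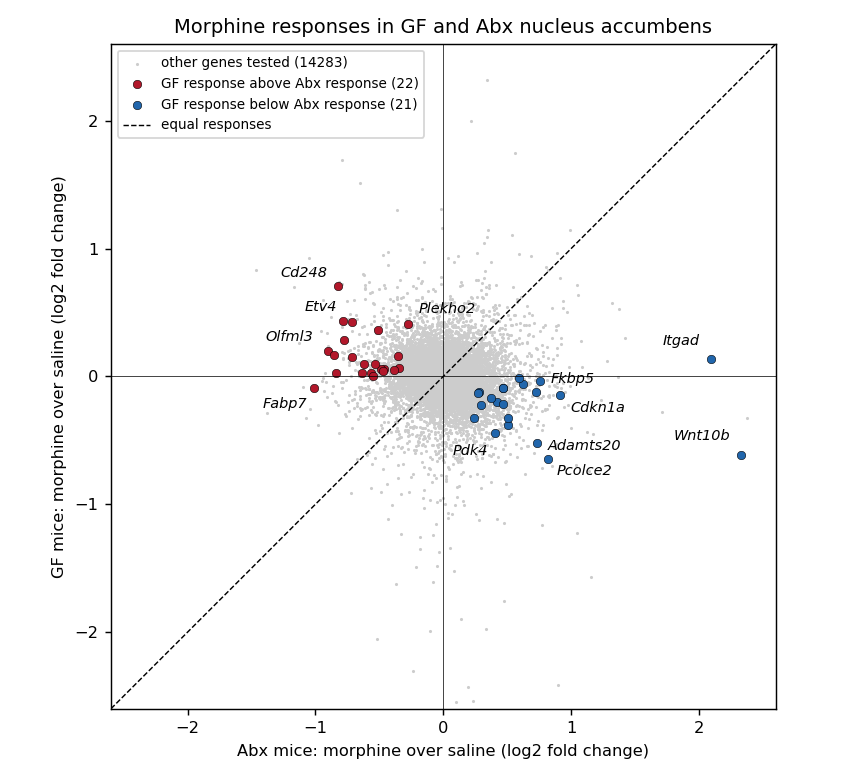
Morphine responses of 14326 genes, each point 1 gene, with the log2 fold change of morphine over saline in GF mice on the vertical axis and in Abx mice on the horizontal axis. The 22 genes with a positive difference (red) lie left of 0, from -1.01 to -0.28 in Abx mice, and the 21 with a negative difference (blue) lie right of 0, from 0.24 to 2.33, while both sets lie between -0.64 and 0.71 in GF mice.

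The 2 responses behind the called differences were of unequal size. The 22 genes with a positive difference had GF responses of -0.09 to 0.71 (median 0.09) and Abx responses of -1.01 to -0.28 (median -0.59). The 21 genes with a negative difference had GF responses of -0.64 to 0.14 (median -0.17) and Abx responses of 0.24 to 2.33 (median 0.51). The difference is built from the same libraries as these responses and chose the genes, so the values are a description. In 21 of the 22 every Abx morphine library lay below every Abx saline library, and in 18 of the 21 every one lay above. Over all tested genes such separation was found in 3.13% (below) and 3.27% (above) in Abx mice, and in 0.133% and 0.140% in GF mice.

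**Figure D2:**
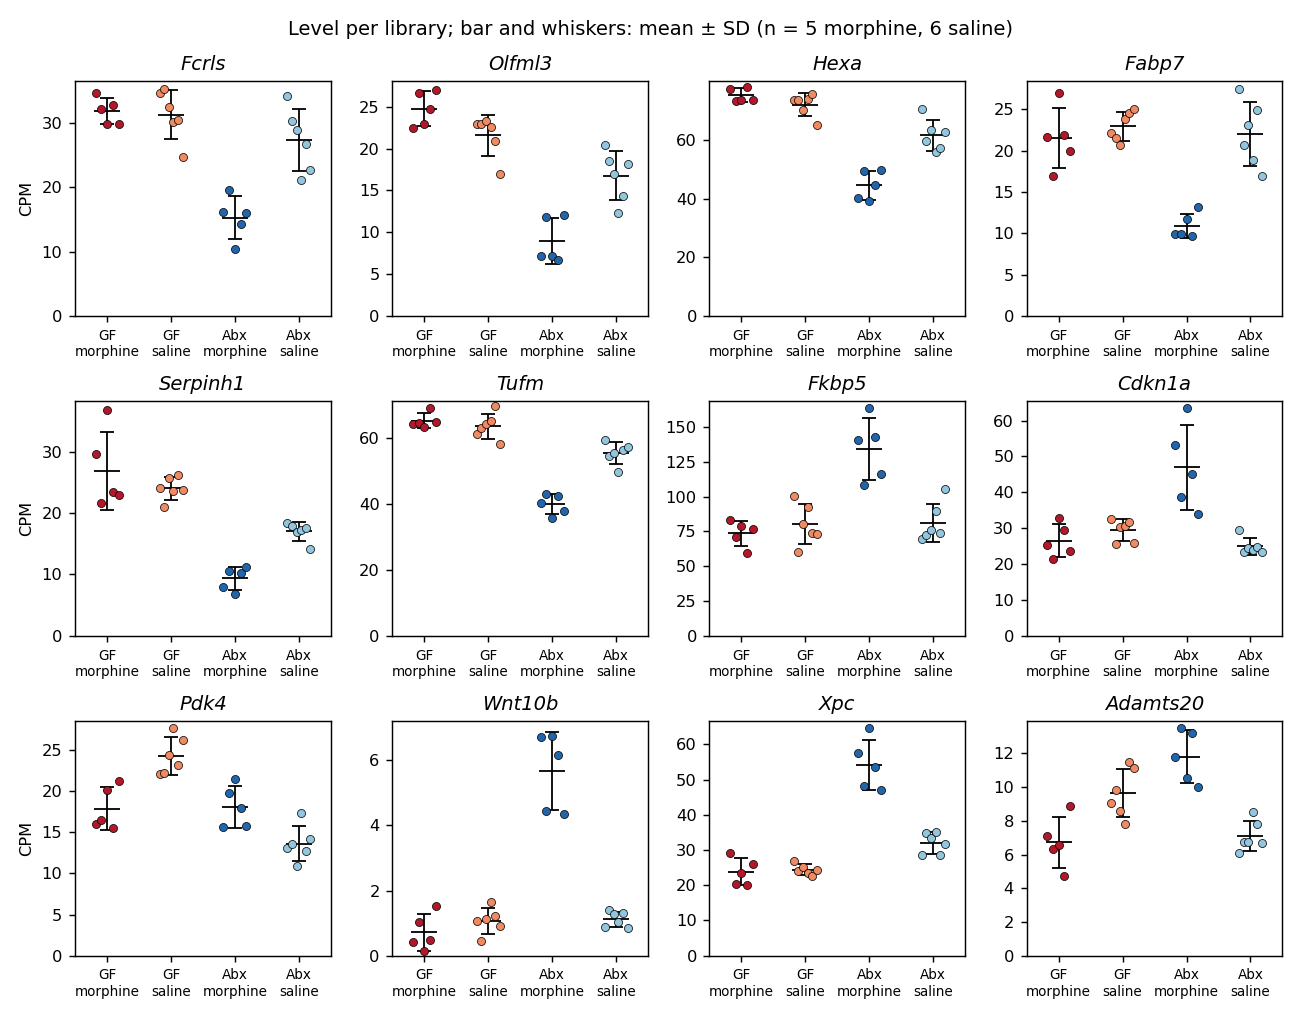
Level of 12 genes in CPM in every library, with points for libraries and bars for the mean ± SD (5 morphine, 6 saline libraries). For Fcrls, Olfml3, Hexa, Fabp7, Serpinh1 and Tufm the Abx morphine libraries (dark blue) lie below the other 3 groups, and for Fkbp5, Cdkn1a, Wnt10b and Xpc they lie above them.

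The called genes are described by their known roles, beginning with 2 microglia markers and genes with known roles in lysosomes, phagocytosis or leukocytes. The order by role was made after the values were seen and is no finding about a group. Of the 43, 15 (Cd248, Fer1l5, Lasp1, Bin2, Plekho2, Rcn3, Pex6, Mfge8, Ldb2, Usp53, Mmp16, Dis3, Sgcb, Chfr and Itgad) are named here after their values were seen, and the others by a rule. Fcrls, an Fc receptor-like gene that marks mouse microglia, had 29.8, 29.8, 32.1, 32.7 and 34.5 CPM in GF morphine libraries, 24.6 to 35.2 (median 31.4) in GF saline, 10.5, 14.2, 16, 16.1 and 19.5 in Abx morphine and 21.1 to 34.2 (median 27.8) in Abx saline libraries. All 5 Abx morphine libraries lay below all other libraries of the 4 groups, and GF morphine and saline libraries overlapped. The difference was 0.86 ± 0.19 (adjusted p = 0.0444), with responses of 0.02 in GF and -0.84 in Abx mice.

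Olfml3, a secreted protein gene enriched in microglia, had 22.4, 22.9, 24.8, 26.7 and 27 CPM in GF morphine libraries, 16.9 to 23.3 (median 22.7) in GF saline, 6.69, 7.14, 7.16, 11.8 and 12.1 in Abx morphine and 12.4 to 20.4 (median 17.6) in Abx saline libraries. Again every Abx morphine library was lower than any other, while 3 of the 5 GF morphine libraries exceeded all GF saline ones. Its difference was 1.10 ± 0.21 (adjusted p = 0.0298). Hexa, which codes for the alpha subunit of the lysosomal enzyme hexosaminidase, had 73.3, 73.4, 73.4, 77.3 and 78 CPM in GF morphine libraries against 65 to 75.6 (median 73.5) in GF saline, and 39.1, 40.2, 44.5, 49.3 and 49.7 in Abx morphine against 55.9 to 70.6 (median 61.1) in Abx saline libraries. The Abx groups did not overlap, and the GF groups did. Its difference was 0.53 ± 0.10 (adjusted p = 0.0298).

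Bin2, a membrane-curving protein gene of myeloid cells, averaged 8.58 ± 0.836 CPM in GF morphine and 7.14 ± 1.63 in GF saline mice, against 4.71 ± 0.794 in Abx morphine and 8.10 ± 1.58 in Abx saline mice (difference 1.06 ± 0.22, adjusted p = 0.0411). Mfge8, which codes for a secreted bridge between dying cells and phagocytes, averaged 198 ± 19.5 and 189 ± 21.1 CPM in GF morphine and saline mice and 173 ± 18.9 and 242 ± 17.2 in Abx morphine and saline mice (0.55 ± 0.12, adjusted p = 0.0445). For both genes every Abx morphine library lay below every Abx saline one. Plekho2, a pleckstrin homology domain gene, was the single gene of the 22 whose GF groups did not overlap. It had 16.4, 17.4, 17.4, 18 and 19.2 CPM in GF morphine libraries, all of them above the GF saline range of 11.1 to 16.4 (median 12.4), and 15.3, 19.2, 19.7, 20.2 and 21 in Abx morphine against 19.7 to 26 (median 23.5) in Abx saline libraries, so that its difference of 0.69 ± 0.15 (adjusted p = 0.0423) came with responses of 0.41 in GF and -0.28 in Abx mice, neither past its own threshold.

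Itgad had a negative difference. It codes for the alpha D chain of a leukocyte integrin and was low in 3 of the groups. Libraries had 0.442, 0.627, 0.696, 0.855 and 1.20 CPM in GF morphine, 0.253 to 1.41 (median 0.732) in GF saline, 2.53, 2.72, 3.17, 3.42 and 3.65 in Abx morphine and 0.422 to 0.866 (median 0.826) in Abx saline mice. The Abx morphine libraries stood above all others without overlap. The difference was -1.96 ± 0.42 (adjusted p = 0.0445), and the Abx response was 2.09.

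Of a list of 20 microglia markers, 2 passed with a positive difference, Fcrls and Olfml3, and 0 with a negative one. The list had a median difference of 0.35, with 19 of 20 positive, against -0.01 and 49.1% positive over all genes, and 11 of 20 (55.0%) had a positive difference at an unadjusted p under 0.05, against 7.41% of all genes. Its median response was 0.02 in GF mice and -0.33 in Abx mice, where 4 of 20 fell, against 0.984% of all genes: Fcrls, Olfml3, the fractalkine receptor gene Cx3cr1 (-0.43) and the integrin gene Itgam (-0.46). Members that did not pass include the calcium-binding protein gene Aif1 (difference 0.93, adjusted p = 0.118), the purine receptor gene P2ry12 (0.29, 0.526) and the growth-factor receptor gene Csf1r (0.06, 0.843). The level of the list, a mean of log2(CPM + 1), was 5.03 to 5.39 in GF morphine, 4.94 to 5.39 in GF saline, 4.46 to 4.81 in Abx morphine and 4.83 to 5.13 in Abx saline libraries. The Abx morphine libraries were lowest, without overlap with any other group. The list's median difference was 0.33 to 0.37 without GF saline replicate 1 or 5 or GF morphine replicate 5, with 2, 2 and 1 members past the threshold. In bulk RNA, fewer cells of a type and less RNA per cell cannot be told apart.

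**Figure D3:**
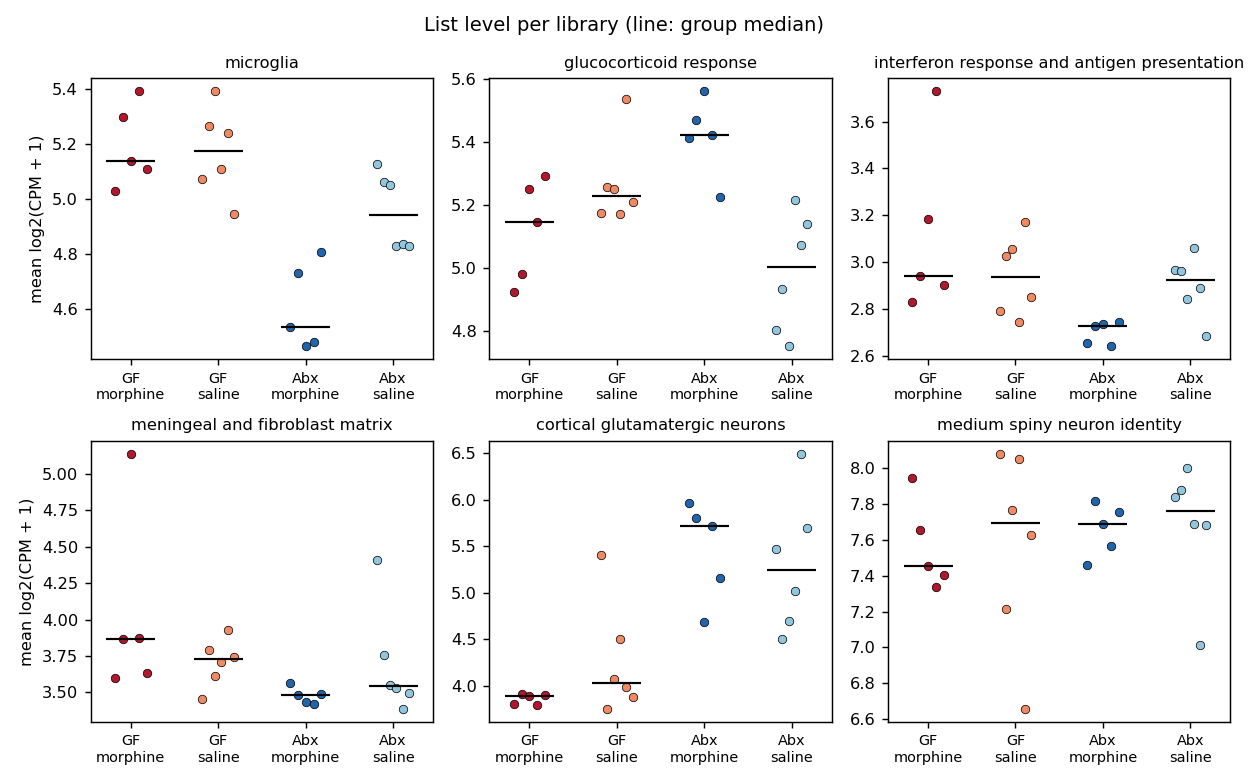
Level of 6 gene lists in each library, as the mean log2(CPM + 1) of the list's tested members, with a line at the group median. The microglia list is lowest in the 5 Abx morphine libraries (4.46 to 4.81), the glucocorticoid list is highest in 4 of them and in GF saline replicate 5, and single GF libraries stand out in the interferon (3.73), matrix (5.14) and cortical (5.40) lists.

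Fkbp5, a co-chaperone gene that the glucocorticoid receptor induces, had 59.7, 71, 76.5, 79 and 83 CPM in GF morphine libraries, 60.5 to 100.3 (median 76.9) in GF saline, 108, 116, 141, 142 and 164 in Abx morphine and 69.3 to 105 (median 75) in Abx saline libraries. The 5 Abx morphine libraries lay above all others, while the other 3 groups overlapped. The difference was -0.85 ± 0.19 (adjusted p = 0.045), with an Abx response of 0.73 ± 0.13 (adjusted p = 0.00491) and a GF response of -0.12. Cdkn1a, which codes for the cell-cycle inhibitor p21, had 21.5, 23.8, 25.3, 29.5 and 32.8 CPM in GF morphine libraries and 25.5 to 32.4 (median 30.5) in GF saline, against 34, 38.8, 45.1, 53.3 and 63.4 in Abx morphine and 23.3 to 29.6 (median 24.3) in Abx saline libraries. Every Abx morphine value was again the higher one (difference -1.06 ± 0.19, adjusted p = 0.0211).

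Pdk4, a kinase gene that limits the use of glucose by mitochondria, had responses of opposite sign. It had 15.5, 16, 16.5, 20.1 and 21.2 CPM in GF morphine libraries, all below the GF saline range of 22 to 27.7 (median 23.8). Abx morphine libraries had 15.6, 15.7, 18, 19.7 and 21.4 CPM, of which 3 lay above the Abx saline range of 10.9 to 17.4 (median 13.3). GF saline mice had the highest level of the 4 groups. The difference was -0.85 ± 0.16 (adjusted p = 0.0298), from responses of -0.44 and 0.41 that did not pass on their own (adjusted p = 0.934 in GF and 0.0616 in Abx mice). Pdk4 was the single gene of the 21 with a negative difference whose GF groups did not overlap.

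These 3 were the members of a 24-gene glucocorticoid-response list that passed, all with a negative difference, and 0 passed with a positive one. The list's median difference was -0.51, with 20 of 24 negative, and 11 of 24 (45.8%) had a negative difference at an unadjusted p under 0.05, against 7.59% of all genes. Its median response was -0.15 in GF mice, where 0 passed, and 0.34 in Abx mice, where 6 of 24 rose, against 0.859% of all genes, and 0 fell. Besides Fkbp5 and Cdkn1a these 6 were Plin4, a lipid-droplet coat gene, Hif3a, a hypoxia-inducible factor gene, Sult1a1, a sulfotransferase gene, and Arrdc2, an arrestin-domain gene. Plin4 had 11.8, 12.5, 16.6, 17.1 and 29.8 CPM in GF morphine libraries, 11.9 to 42.8 (median 19) in GF saline, 47.7, 51.5, 55.9, 59.7 and 66.7 in Abx morphine and 5.02 to 40.0 (median 10.5) in Abx saline libraries. Its Abx groups did not overlap, yet 2 Abx saline libraries stood well above the other 4, and its difference of -1.99 ± 0.55 did not pass (adjusted p = 0.11). Differences that did not pass were also those of Hif3a (-1.42, adjusted p = 0.107), the transcription factor gene Zbtb16 (-1.55, 0.106) and the kinase gene Sgk1 (-0.47, 0.424). Metallothionein genes Mt1 (0.01) and Mt2 (0.09) had differences near 0.

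List levels of the glucocorticoid genes were 4.92 to 5.29 in GF morphine, 5.17 to 5.54 in GF saline, 5.22 to 5.56 in Abx morphine and 4.75 to 5.22 in Abx saline libraries. The Abx groups did not overlap, and the GF groups did. The list's median difference was -0.52 to -0.54 without GF saline replicate 1 or 5 or GF morphine replicate 5, with 2, 4 and 1 members past the threshold. With neighbouring-tissue levels as covariates it was -0.39, with 2 members past it. Receptors and hormone genes of the same axis had 0 calls among 7 in edgeR and DESeq2 and 0 at an unadjusted p under 0.05 (median difference 0.05, range -0.03 to 0.11). The mineralocorticoid receptor gene Nr3c2 had a difference of -0.29 ± 0.18 (adjusted p = 0.466).

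Among genes of matrix and secreted proteins, Serpinh1, the collagen chaperone of the endoplasmic reticulum, had 21.7, 22.9, 23.5, 29.7 and 36.8 CPM in GF morphine libraries, 20.9 to 26.1 (median 23.9) in GF saline, 6.90, 7.97, 10.3, 10.6 and 11.2 in Abx morphine and 14.1 to 18.3 (median 17.4) in Abx saline libraries. Its Abx morphine libraries were lowest of all and its GF groups overlapped (difference 1.02 ± 0.19, adjusted p = 0.0253). Cd248, a surface glycoprotein gene of pericytes and fibroblasts, had 2.50, 2.98, 3.25, 3.71 and 4.04 CPM in GF morphine against 1.52 to 2.82 (median 1.89) in GF saline libraries, and 1.94, 1.94, 2.06, 2.08 and 3.04 in Abx morphine against 3.43 to 5.12 (median 3.71) in Abx saline libraries. Here 4 of 5 GF morphine libraries exceeded the GF saline range while all 5 Abx morphine libraries fell short of the Abx saline range. Its difference was 1.54 ± 0.26 (adjusted p = 0.0164), with responses of 0.71 in GF mice (adjusted p = 0.934) and -0.82 in Abx mice (adjusted p = 0.0138).

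Rcn3, which codes for a calcium-binding protein of the secretory pathway, averaged 4.75 ± 1.23 CPM in GF morphine, 3.54 ± 0.571 in GF saline, 2.43 ± 0.447 in Abx morphine and 4.19 ± 0.916 in Abx saline mice (1.22 ± 0.26, adjusted p = 0.0444). Other genes of secreted proteins had negative differences. Adamts20, a secreted metalloprotease gene, had the smallest p of the 43. It had 4.70, 6.33, 6.56, 7.10 and 8.89 CPM in GF morphine libraries against 7.84 to 11.5 (median 9.46) in GF saline, and 9.98, 10.6, 11.8, 13.2 and 13.5 in Abx morphine against 6.08 to 8.52 (median 6.74) in Abx saline libraries. GF morphine libraries were below the GF saline range in 4 of 5, and Abx morphine libraries were above the Abx saline range in 5 of 5. Its difference was -1.25 ± 0.20 (adjusted p = 0.0138).

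Wnt10b, a secreted Wnt ligand gene, had the largest difference among the 43, -2.94 ± 0.47 (adjusted p = 0.0138). Its levels were 0.142, 0.418, 0.470, 1.03 and 1.54 CPM in GF morphine, 0.455 to 1.64 (median 1.10) in GF saline, 4.34, 4.42, 6.14, 6.70 and 6.74 in Abx morphine and 0.848 to 1.40 (median 1.15) in Abx saline libraries. All 5 Abx morphine libraries stood above the rest, and the other 3 groups overlapped. Pcolce2, which codes for an enhancer of procollagen processing, averaged 3.45 ± 1.08 CPM in GF morphine and 5.46 ± 1.30 in GF saline mice, against 6.92 ± 0.871 in Abx morphine and 3.89 ± 0.775 in Abx saline mice (-1.46 ± 0.27, adjusted p = 0.0286). The membrane-type metalloprotease gene Mmp16 had a difference of -0.89 ± 0.19 (adjusted p = 0.0411).

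Among 12 markers of meningeal cells and fibroblasts 0 passed in either direction in edgeR and in DESeq2, and 6 had a positive difference at an unadjusted p under 0.05. The list's median difference was 0.86, with 11 of 12 positive. Collagen genes Col3a1 (difference 2.48, adjusted p = 0.216) and Col1a1 (1.32, 0.259) did not pass. The level of this list reached 5.14 in GF morphine replicate 3, with the other 4 GF morphine libraries at 3.60 to 3.87, and 4.41 in Abx saline replicate 1, with the other 5 Abx saline libraries at 3.39 to 3.75. Without GF morphine replicate 3 the difference was 0.89 for Serpinh1 (edgeR adjusted p = 0.0369), 1.5 for Cd248 (0.033) and 1.09 for Rcn3 (0.0704). Without Abx saline replicate 1 it was 1.0 for Serpinh1 (0.0512), 1.45 for Cd248 (0.029) and 1.11 for Rcn3 (0.0838), so the calls of Serpinh1 and Rcn3 were lost in 1 or both fits and that of Cd248 in neither.

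Among genes of mitochondria, peroxisomes and metabolism, Tufm, which codes for the elongation factor of mitochondrial translation, had 63.4, 64.3, 64.5, 65 and 69.1 CPM in GF morphine libraries, 58.2 to 69.6 (median 63.7) in GF saline, 35.9, 38, 40.3, 42.5 and 43 in Abx morphine and 49.6 to 59.4 (median 55.8) in Abx saline libraries. The Abx morphine libraries lay below every other library, and the GF groups overlapped fully. Its difference was 0.51 ± 0.09 (adjusted p = 0.0164). Pycrl, a gene of proline synthesis, averaged 20.0 ± 2.73 CPM in GF morphine, 18.8 ± 1.73 in GF saline, 12.4 ± 1.03 in Abx morphine and 19 ± 0.834 in Abx saline mice (0.71 ± 0.12, adjusted p = 0.0206). Tst, which codes for the mitochondrial sulfur transferase rhodanese, had a difference of 0.63 ± 0.13 (adjusted p = 0.0325), and Pex6, a peroxisome assembly gene, one of 0.55 ± 0.12 (adjusted p = 0.0444). In all 4 genes every Abx morphine library lay below every Abx saline library.

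Genes of glia and lipid handling passed in both directions. Fabp7, the lipid-binding protein gene of astrocytes and their precursors, had 16.9, 20.0, 21.7, 21.9 and 26.9 CPM in GF morphine libraries, 20.7 to 25 (median 22.9) in GF saline, 9.72, 9.93, 9.97, 11.7 and 13.2 in Abx morphine and 16.9 to 27.5 (median 21.9) in Abx saline libraries. Abx morphine mice had the lowest 5 values of the 22, and the other 3 groups overlapped. Its difference was 0.92 ± 0.17 (adjusted p = 0.0298), with responses of -0.09 in GF and -1.01 in Abx mice. Slc38a3, a glutamine transporter gene of astrocytes, averaged 82 ± 7.13 CPM in GF morphine, 73.3 ± 4.83 in GF saline, 64.6 ± 6.92 in Abx morphine and 82.7 ± 5.35 in Abx saline mice (0.52 ± 0.10, adjusted p = 0.0316). The 20 astrocyte markers as a list had a median difference of 0.01, with 0 calls in edgeR and DESeq2 and 1 at an unadjusted p under 0.05.

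Negative differences in lipid genes were those of Kdsr, which acts early in sphingolipid synthesis (-0.55 ± 0.11, adjusted p = 0.0316), Hsd17b7, an enzyme gene of cholesterol synthesis (-0.57 ± 0.12, 0.0444), and Mfsd2a, the lysophospholipid carrier of the blood-brain barrier (-0.56 ± 0.12, 0.0427). Mfsd2a averaged 36.6 ± 3.85 CPM in GF morphine, 39.1 ± 2.68 in GF saline, 46 ± 2.75 in Abx morphine and 33.2 ± 4.34 in Abx saline mice, and its Abx morphine libraries lay above all Abx saline ones. It went against its own list: of 20 endothelial genes 17 had a positive difference (median 0.25), and in edgeR Mfsd2a alone passed. The endothelial level of GF saline replicate 4 was 4.14, below the other GF saline libraries at 4.56 to 4.74, and no list median leaves it out. Mfsd2a passed in 4 of the 22 fits that left out 1 library and in 14 of all 36 alternatives. Among others, its call was lost with upper-quartile factors, with covariates and without GF saline replicate 1 or GF morphine replicate 5. Of 23 cholesterol genes, edgeR called Hsd17b7 alone, and DESeq2 and the fit of all 33 libraries called 2 each. Over all genes these 2 settings called 248 of 14326 and 313 of 14602. Among other settings, edgeR called 0 with upper-quartile factors, with offsets, with neighbouring-tissue covariates and without GF saline replicate 1 or GF morphine replicate 5. Hsd17b7 passed in 4 of the 22 fits that left out 1 library and in 11 of all 36 alternatives. The median difference of the 23 cholesterol genes was -0.07 (range -0.12 to 0.06).

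Among genes acting on DNA, RNA and protein turnover, Xpc, a DNA damage sensor of nucleotide excision repair, had 20.1, 20.5, 23.5, 26 and 29.1 CPM in GF morphine libraries, 22.5 to 26.9 (median 24.1) in GF saline, 46.9, 48.3, 53.4, 57.4 and 64.5 in Abx morphine and 28.5 to 35.2 (median 32.6) in Abx saline libraries. The Abx morphine libraries were the highest, without overlap, and only GF morphine replicate 1 reached into the Abx saline range. Its difference was -0.79 ± 0.14 (adjusted p = 0.0206). Ncapd3, a condensin subunit gene, averaged 33.8 ± 1.95 CPM in GF morphine and 34.1 ± 3.83 in GF saline, against 56.9 ± 3.77 in Abx morphine and 37.7 ± 4.70 in Abx saline mice (-0.61 ± 0.12, adjusted p = 0.0316).

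Ubiquitin ligase genes were Trip12 (-0.53 ± 0.11, adjusted p = 0.0316), Shprh, which marks the replication clamp after damage (-0.69 ± 0.13, 0.0298), and Chfr, a mitotic checkpoint gene (-0.40 ± 0.09, 0.0418). Usp53, of the ubiquitin-specific protease family, had -0.84 ± 0.17 (0.0408). The histone demethylase gene Phf8 had -0.52 ± 0.10 (0.0298), Npat, a coactivator of histone genes, -0.62 ± 0.12 (0.0316), and Dis3, a nuclease gene of the RNA exosome, -0.68 ± 0.14 (0.0411). For Shprh, GF morphine replicate 5 stood at 31.2 CPM, below the other 4 at 47.5 to 51.8 CPM, and its Abx groups did not overlap at 57.6, 58.4, 62.8, 64.9 and 65.9 CPM in morphine against 42.4 to 47.4 (median 44.6) CPM in saline libraries.

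The remaining called genes have no shared role. With positive differences were the transcription factor gene Etv4 (1.14 ± 0.21, adjusted p = 0.0286), the LIM-domain regulator genes Lmo1 (0.87 ± 0.18, 0.0408) and Ldb2 (0.59 ± 0.13, 0.045), and Arhgef19 (0.86 ± 0.18, 0.0378). The cilium transport gene Ift22 (0.41 ± 0.08, 0.0378), the actin-binding gene Lasp1 (0.44 ± 0.09, 0.0411) and the ferlin gene Fer1l5 (0.67 ± 0.14, 0.0408) also passed. The sarcoglycan gene Sgcb had a negative difference (-0.40 ± 0.08, 0.0415). Etv4 had responses of 0.43 in GF and -0.72 in Abx mice, and Lmo1 had 0.36 and -0.51 in GF and Abx mice. At the threshold, Fkbp5 and Ldb2 lay just inside (adjusted p = 0.045 each) and Fnip1 (-0.76, 0.0571) and Pomt1 (0.69, 0.0577) just outside.

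Genes of opioid and dopamine signalling, the direct context of the drug, gave 0 calls among 8 opioid receptor and peptide genes and 0 among 19 dopamine and cAMP genes, in edgeR and in DESeq2. At an unadjusted p under 0.05 there were 1 and 0. The median difference of the 19 dopamine and cAMP genes was -0.10, with 11 negative. It was 0.04 without GF saline replicate 1 (8 negative) and -0.23 without GF saline replicate 5 (15 negative). With neighbouring-tissue covariates it was -0.22 (16 negative). Oprm1, the mu opioid receptor gene, had 2.98, 6.27, 8.98, 9.05 and 10.4 CPM in GF morphine libraries, 5.01 to 11 (median 7.66) in GF saline, 4.80, 5.12, 5.64, 5.83 and 6.27 in Abx morphine and 1.62 to 7.46 (median 4.05) in Abx saline libraries. Morphine and saline libraries overlapped in both kinds of mice. Its difference was -0.45 ± 0.40 (95% interval -1.28 to 0.37, adjusted p = 0.624), so a change of either direction was not detectable at this precision. The kappa receptor gene Oprk1 had -0.74 ± 0.31 (-1.38 to -0.10, 0.265) and the delta receptor gene Oprd1 -0.61 ± 0.40 (-1.44 to 0.21, 0.481). The peptide genes Penk, at 0.14 ± 0.24 (-0.35 to 0.64), and Pdyn, the dynorphin precursor gene, at 0.38 ± 0.29 (-0.23 to 0.98), did not pass either.

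The dopamine receptor genes Drd1a and Drd2 had differences of -0.23 ± 0.33 (95% interval -0.91 to 0.45) and -0.11 ± 0.37 (-0.87 to 0.65). Drd1a averaged 206 ± 37.9 CPM in GF morphine, 236 ± 98.6 in GF saline, 244 ± 30.7 in Abx morphine and 238 ± 51.6 in Abx saline mice, with the widest spread in GF saline libraries. The sign of the Drd2 value turned to 0.11 without GF saline replicate 1. The list of 20 medium spiny neuron genes had a median difference of -0.05 (11 negative), which became 0.11 without the same library (8 negative). It was -0.17 without GF saline replicate 5 (14 negative) and -0.19 with neighbouring-tissue covariates (18 negative). Of 20 activity-induced genes 0 passed in edgeR or DESeq2 and 2 had an unadjusted p under 0.05, while 18 had a negative difference (median -0.39, and -0.17 with neighbouring-tissue covariates). Fos stood at -0.59 ± 0.48 (adjusted p = 0.587) and Egr2, also an early transcription factor gene, at -1.21 ± 0.43 (0.189). Lists of GABA (median -0.01, range -0.09 to 0.07), glutamate (-0.07, -0.10 to 0.04), synaptic vesicle (-0.09, -0.09 to 0.01) and potassium channel genes (-0.27, -0.31 to -0.13, with 20 of 23 negative) had 0 calls each in edgeR and DESeq2, and 0, 1, 3 and 2 members at an unadjusted p under 0.05.

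**Figure D4:**
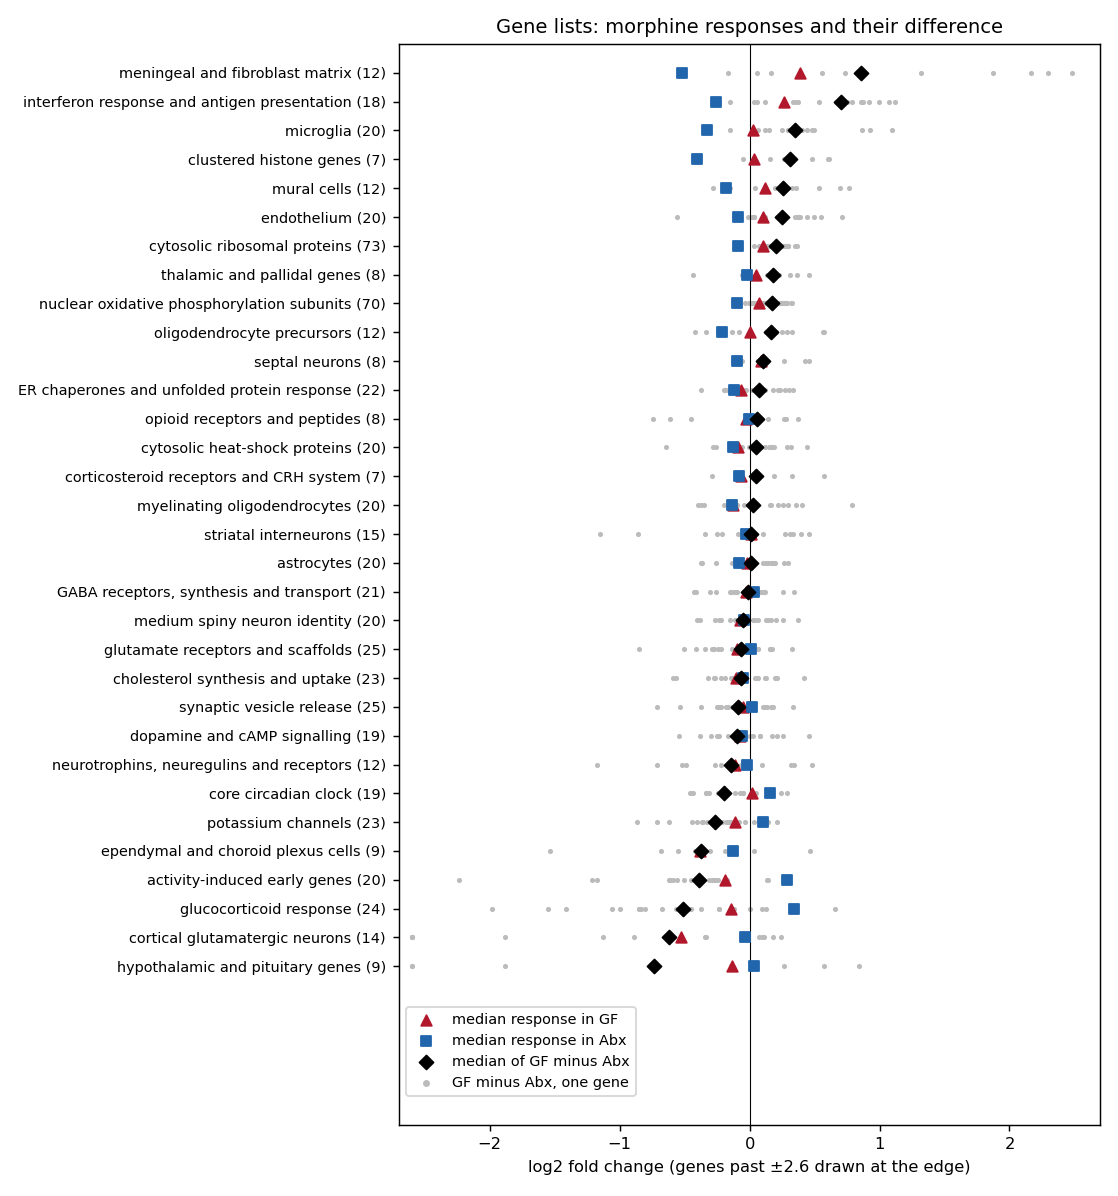
Gene lists with 3 or more tested members (number in parentheses), with the median response in GF mice (triangles), in Abx mice (squares), the median difference (diamonds) and each gene's difference (grey points), all as log2 fold changes. The glucocorticoid list lies at -0.51 with an Abx median of 0.34, the microglia list at 0.35 with an Abx median of -0.33, and the opioid (0.06, range over alternatives -0.05 to 0.10) and medium spiny neuron (-0.05, -0.19 to 0.11) lists lie near 0.

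Other lists had 0 called differences in edgeR with the 22 libraries. With all 33 libraries edgeR called 3 of 18 interferon, 2 of 22 endoplasmic reticulum chaperone, 2 of 70 oxidative phosphorylation and 2 of 73 ribosomal protein genes. All had positive differences. Over all 14602 genes in that fit 313 were called, 182 of them with a positive difference. Without GF saline replicate 5 edgeR called 2 of 73 ribosomal protein and 1 of 20 heat-shock genes with positive differences and 1 of 19 clock genes with a negative one. Over all 14303 genes in that fit 157 were called, 66 with a positive and 91 with a negative difference. With the 22 libraries all 73 ribosomal protein genes had a positive difference with a median of 0.20, and 67 of 70 nuclear genes of oxidative phosphorylation did with a median of 0.17. With offsets for GC content and length 67 and 55 were positive, with medians of 0.09 and 0.06. GF morphine replicate 5 had an oxidative phosphorylation level of 7.21, the other GF morphine libraries 6.82 to 6.88, and without it the median was 0.10, with 60 of 70 positive. At an unadjusted p under 0.05 in edgeR there were 30 (41.1%) and 15 (21.4%) members, against 7.41% of all genes with a positive difference. DESeq2 called 2 of each list, against 248 of all 14326 genes. Interferon-response and antigen-presentation genes had a median of 0.71 with 17 of 18 positive. In edgeR 5 had an unadjusted p under 0.05 and DESeq2 called 0. GF morphine replicate 5 had a list level of 3.73, the other GF morphine libraries 2.83 to 3.18, and the median difference was 0.31 without it. Among chaperone genes of the endoplasmic reticulum (median 0.07, range 0.04 to 0.10) and heat-shock genes (0.05, 0.04 to 0.14) 4 of 22 and 2 of 20 fell in Abx mice, against 0.984% of all genes, Calr (-0.34) and Chordc1 (-0.58) among them. Each list had 4 differences at an unadjusted p under 0.05, and DESeq2 called 2 chaperone and 0 heat-shock genes. Hspa5, which codes for the chaperone BiP, averaged 569.6 ± 55.1 CPM in GF morphine, 619.6 ± 95.1 in GF saline, 271 ± 10.1 in Abx morphine and 311 ± 27.8 in Abx saline mice, so its level separated GF from Abx mice while its difference was 0.08 ± 0.13. The cold-inducible RNA-binding protein genes Rbm3 (-0.34, adjusted p = 0.237) and Cirbp (-0.30, 0.415) rose in Abx mice (0.39 and 0.46) without a called difference. Median differences were -0.20 (range -0.24 to -0.11) for 19 clock genes, 0.26 (0.14 to 0.35) for 12 mural cell genes and 0.17 (0.10 to 0.23) for 12 oligodendrocyte precursor genes. They were -0.14 (-0.14 to -0.07) for 12 growth-factor genes and 0.31 (0.31 to 0.35) for 7 clustered histone genes. The 0.03 of 20 myelin genes became 0.21 without GF saline replicate 5 and -0.06 without GF morphine replicate 5, and the 0.01 of 15 interneuron genes ranged over -0.07 to 0.15. None of these lists had a called difference with all 22 libraries in edgeR or DESeq2. In each, 1 to 3 members had a difference at an unadjusted p under 0.05. Within Abx mice edgeR called 1 clock gene higher and 1 oligodendrocyte precursor and 1 myelin gene lower. There 8 of 19 clock genes (42.1%) rose at an unadjusted p under 0.05, against 8.36% of all genes. GF saline replicate 4 had the lowest mural cell level of its group (3.43), and no list median leaves it out. Of 6 red-cell genes only Alas2, a heme synthesis gene, was tested (1.47 ± 0.38, edgeR adjusted p = 0.102), and DESeq2 called it higher.

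Markers of neighbouring tissue differed in level between the groups. Slc17a7, the vesicular glutamate transporter gene of cortical neurons, which medium spiny neurons lack, had 3.13, 3.53, 4.18, 4.42 and 4.45 CPM in GF morphine libraries, 2.43 to 304 (median 5.56) in GF saline, 133, 268, 563, 576 and 852 in Abx morphine and 73.7 to 1238 (median 279) in Abx saline libraries. GF saline replicate 1, at 304 CPM, lay within both Abx ranges, GF saline replicate 4 had 65.1 CPM, and every other GF library had at most 6.03 CPM. The cortical list of 14 genes, at 3.79 to 3.91 in GF morphine, 3.75 to 5.40 in GF saline, 4.68 to 5.97 in Abx morphine and 4.50 to 6.49 in Abx saline libraries, had a median difference of -0.62, and -0.18 without that library. Hypothalamic and pituitary genes had a median of -0.74, and 0.22 without GF saline replicate 5, where only 7 of the 9 members passed the filter, so these medians cover different members. These lists had 0 calls in edgeR and DESeq2 and 2 and 0 members at an unadjusted p under 0.05. Medians were 0.10 (0.08 to 0.28) for septal and -0.38 (-0.43 to -0.25) for ependymal genes, and 0.18 for thalamic and pallidal genes, with 0.05 without GF saline replicate 1 and 0.34 without GF saline replicate 5. With the cortical and hypothalamic levels as covariates 37 genes passed, 26 of the 43 among them, and all 43 had the same sign.

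Gene properties moved with the difference too. Across 14225 genes, which are not independent replicates, longer transcripts had lower differences (Spearman's rank correlation -0.380), and transcripts richer in G and C had higher ones (0.298). Genes with a positive call had a median GC content of 55.3% and length of 2496 bases, those with a negative call 46.2% and 4612 bases, and all tested genes 49.9% and 3472 bases. With offsets for both, 72 genes passed, 50 with a positive and 22 with a negative difference, and 35 of the 43 were among them. All 43 had the same sign there.

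The count of 43 depended on single libraries. It was 6 without GF morphine replicate 1 or Abx saline replicate 1, 7 without Abx morphine replicate 3, 8 without GF saline replicate 3 or Abx morphine replicate 1, 9 without Abx morphine replicate 4, and 11 without GF saline replicate 6. It was 13 without Abx saline replicate 2, 14 without GF morphine replicate 2, 16 without Abx morphine replicate 5, 20 without GF morphine replicate 5, 23 without GF morphine replicate 6, 24 without Abx saline replicate 5 and 25 without GF saline replicate 4. Without GF saline replicate 5 it was 157, and without the deep GF saline replicate 1 it was 38. Adamts20, Cd248, Wnt10b and Tufm passed in all 22 such fits, Pycrl and Xpc in 21, Cdkn1a in 20, Serpinh1 in 18, Etv4 in 17, Fabp7 and Pcolce2 in 16 and Hexa in 15. The other 31 genes passed in 3 to 14, and in none of these fits did any of the 43 change its sign.

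**Figure D5:**
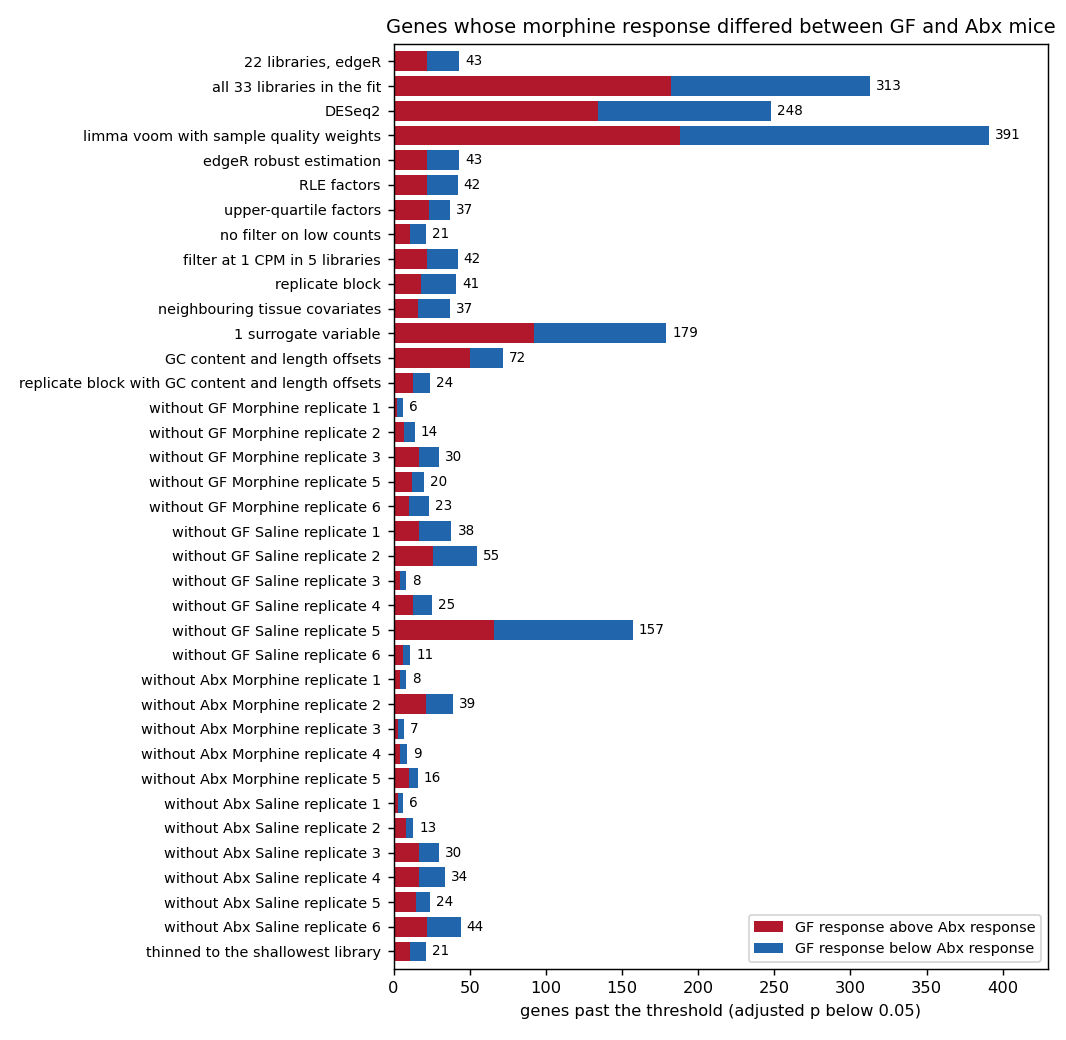
Number of genes whose difference passed an adjusted p of 0.05 under each setting, with positive differences in red and negative ones in blue. The bars run from 6 to 391 genes around the 43 of the 22-library edgeR fit, and the 22 bars that leave out 1 library run from 6 to 157.

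GF and Abx responses share no library, so the GF response can be read at the genes that Abx mice changed. Of the 123 genes that rose in Abx mice 48 (39.0%) had a positive GF response, against 48.0% of all genes, and their median response was -0.04 in GF mice against 0.51 in Abx mice. Of the 141 that fell, 56 (39.7%) had a negative GF response, against 52.0% of all genes, with medians of 0.02 in GF and -0.40 in Abx mice. With 1 library left out, the GF response was taken as a difference of mean log2(CPM + 1) instead of the fitted value. Without GF morphine replicate 5 these shares were 49.6% of the 123, against 49.1% of all genes, and 42.6% of the 141, against 50.9%. They were 38.21% and 44.68% without GF saline replicate 1, and 34.15% and 34.75% without GF saline replicate 5. Acr, an acrosomal protease gene, rose in Abx mice with a response of 1.15 in GF and 0.99 in Abx mice (difference 0.16 ± 0.34). Gpr17, a receptor gene of the oligodendrocyte lineage, fell in Abx mice with -0.28 in GF and -0.41 in Abx mice (0.13 ± 0.14). Both were picked after their values were seen. In GF mice the smallest p was that of Flt3l, a cytokine gene of blood cell development, at 0.92 ± 0.17 (adjusted p = 0.326), against 0.03 in Abx mice.

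The water-drinking mice with a normal microbiome gave a response, in the fit of all 33 libraries, from libraries that neither side of the difference used. Of the 22 genes with a positive difference 17 (77.3%) had a negative response there, against 48.6% of all genes, with a median of -0.06. Of the 21 with a negative difference 15 (71.4%) had a positive one, against 51.4% of all genes, with a median of 0.09. In edgeR 0 genes passed in those mice and 2208 had an unadjusted p under 0.05 (smallest adjusted p among the 43 = 0.0673, that of Trip12 at 0.28). At an unadjusted p under 0.05 in edgeR, in either direction, were 2 of the 22 genes and 10 of the 21, against 2208 of 14326. Wnt10b had -0.14, Fkbp5 -0.06, Cdkn1a -0.35, Fcrls -0.21, Olfml3 -0.25 and Xpc 0.18 in these mice. Fcrls, Olfml3 and Xpc thus had the sign of the Abx response at a smaller size. Wnt10b, Fkbp5 and Cdkn1a had the opposite sign and are among the 6 of the 21 that did, some with values near 0.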

How the data were processed

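Bulk RNA of the nucleus accumbens was sequenced after TRIzol extraction and SMARTer cDNA synthesis, per the labels' protocols. The authors deposited raw read counts per gene for 33 libraries, and a table of normalized signal used here only to restore gene names. FastQC, STAR 2.4.0 and edgeR are named per the submitters' processing notes; which build, gene annotation or strandedness was used is not given in the sources used here, so overlapping and antisense genes may share reads. Of 27 gene names turned into dates, 19 were restored by matching both tables within 0.01 and 8 were left out. The 5 tally entries that name no gene held 19.3 to 35.4% of reads per library and were left out.

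The 22 libraries were fitted with edgeR 4.0.16 (R 4.3.3): minimum count 10 (filterByExpr), TMM factors, 4 group means, quasi-likelihood F test, Benjamini-Hochberg adjustment over 14326 genes and a threshold of 0.05. Standard errors are the log2 difference divided by the square root of F. CPM uses TMM-scaled depth, and a list level is the mean log2(CPM + 1) of its tested genes. Responses of water-drinking mice came from a fit of all 33 libraries with the same steps. The steps were tested on simulated data with changes planted in GF morphine libraries. They recovered 43% of 100 planted 1.5-fold differences and 85% of 100 planted 2-fold ones, with 9 false calls among 14239 genes.

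By rule, named genes were, in each direction, the 12 with the smallest p among genes averaging at least 5 CPM in 1 group, plus members of 34 gene lists: those past the threshold, or otherwise the 2 with the smallest p, and a few opioid, dopamine and stress genes in every case. Named outside this rule were further list members: Aif1, P2ry12, Csf1r, Cx3cr1, Itgam, Hif3a, Sult1a1, Arrdc2, Zbtb16, Mt1, Mt2, Col3a1 and Col1a1. The comparison, genes and lists were chosen with earlier results of these data known. Alternatives were all 33 libraries, DESeq2 1.42.0, limma 3.58.1 voom with quality weights, robust estimation, other scalings and filters, a replicate block, neighbouring-tissue covariates, 1 surrogate variable (sva 3.50.0), GC and length offsets, and each library left out. Thinning all libraries to the shallowest was chosen after seeing the data. No replicate pair agreed within sampling noise (chi-square per degree of freedom 3.88 to 37.8).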

Additional observations from a re-analysis of the deposited data

Results flagged for a closer look

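In 18 of 308 groups of values (5.84%) 1 library lay far from the rest of its group by Dixon's criterion, which chance meets in about 1 in 20 groups. Among single genes these were Cd248 in Abx morphine replicate 5 (3.04 CPM) and in Abx saline replicate 1 (5.12 CPM), Tufm in GF morphine replicate 5 (69.1 CPM), Cdkn1a in Abx saline replicate 1 (29.6 CPM) and Serpinh1 in Abx saline replicate 6 (14.1 CPM). Further ones were Shprh (31.2 CPM) and Mmp16 (12.1 CPM) in GF morphine replicate 5, Olfml3 in GF saline replicate 6 (16.9 CPM) and Usp53 in Abx morphine replicate 2 (19.4 CPM).

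Among list levels, on the mean log2(CPM + 1) scale, Abx saline replicate 5 stood apart for activity-induced genes (5.95), opioid genes (4.71) and medium spiny neuron genes (7.01). GF morphine replicate 5 stood apart for oxidative phosphorylation genes (7.21), GF morphine replicate 1 for oligodendrocyte precursor genes (4.94), GF saline replicate 5 for glucocorticoid-response genes (5.54) and GF saline replicate 4 for endothelial genes (4.14). The matrix list did so in GF morphine replicate 3 (5.14) and in Abx saline replicate 1 (4.41).

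The morphine responses of GF and Abx mice differed for 43 genes by edgeR's test of the difference itself. The log2 differences of GF minus Abx response above 0 were Cd248 1.54, Rcn3 1.22, Etv4 1.14, Olfml3 1.10, Bin2 1.06, Serpinh1 1.02, Fabp7 0.92, Lmo1 0.87, Fcrls 0.86, Arhgef19 0.86, Pycrl 0.71, Plekho2 0.69, Fer1l5 0.67, Tst 0.63, Ldb2 0.59, Mfge8 0.55, Pex6 0.55, Hexa 0.53, Slc38a3 0.52, Tufm 0.51, Lasp1 0.44 and Ift22 0.41. Those below 0 were Wnt10b -2.94, Itgad -1.96, Pcolce2 -1.46, Adamts20 -1.25, Cdkn1a -1.06, Mmp16 -0.89, Pdk4 -0.85, Fkbp5 -0.85, Usp53 -0.84, Xpc -0.79, Shprh -0.69, Dis3 -0.68, Npat -0.62, Ncapd3 -0.61, Hsd17b7 -0.57, Mfsd2a -0.56, Kdsr -0.55, Trip12 -0.53, Phf8 -0.52, Chfr -0.40 and Sgcb -0.40.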

How the results depend on the processing

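The count of 43 called differences (22 positive, 21 negative) was 313 with all 33 libraries in the fit, 248 in DESeq2, 391 in limma voom with quality weights, 179 with 1 surrogate variable, 72 (50 positive, 22 negative) with GC and length offsets, and 21 each without a filter on low counts and when thinned to the shallowest library. It was 37 with upper-quartile scaling (23 positive, 14 negative) and 37 with neighbouring-tissue covariates. All 43 genes kept their sign in every alternative that fitted them; Itgad was not tested when thinned. The GF count of 0 was 1 with all 33 libraries and 1 in DESeq2. The Abx count of 264 was 784 with all 33 libraries, 636 in DESeq2, 2158 in limma voom, 498 with covariates, 756 with 1 surrogate variable, 425 with offsets and 123 when thinned. The cause of these shifts was not tested.

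Replicate numbers did not pair the samples: deviations of 30 same-numbered pairs correlated at -0.37 to 0.48 (mean 0.02). With the replicate block 41 genes passed, 31 of the 43 among them, and 24 with the block and GC and length offsets, 15 of the 43 among them.

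Leaving out 1 library gave 6 to 157 called differences and 0 in GF mice. For the Abx response it gave 62 to 496 calls, among them 68 without Abx morphine replicate 1, 62 without 3, 129 without 4, 100 without Abx saline replicate 1, 496 without GF morphine replicate 5 and 409 without GF saline replicate 5.

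The Drd2 difference of -0.11 turned to 0.038 in limma voom and 0.10 with 1 surrogate variable, and lay between -0.26 and 0.11 with 1 library left out. The Penk difference of 0.14 turned to -0.11 with neighbouring-tissue covariates. Of 3919 recomputed values of 109 named genes, 3266 kept direction and side of the threshold, 616 lost the threshold, 32 gained it and 5 reversed. GF morphine libraries held fewer reads than Abx ones, so low genes such as Itgad and Wnt10b rest on few reads there.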
